A study of Mus musculus with 12 samples.

Results

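Among 12 mouse skin RNA-Seq libraries, 5 carried the transcripts of growing hair at a high level and 7 did not. The sets were chosen by measured values: in each library the counts of Tchh, Krt71 and Krt25 were summed and divided by all counts, and 1% of the counts was the dividing line. Libraries at or above the line are called the growth-phase set, and those under it are called the low-hair set. Skin came from C57/BL6 mice harvested on day 21 in 4 groups of 3 mice. These were wild type mice given PBS (WT PBS), wild type mice given bleomycin (WT BLM), Thy1-knockout mice given PBS (KO PBS) and Thy1-knockout mice given bleomycin (KO BLM). Bleomycin is a drug that scars the skin where it is injected. The study's methods give 10 mg/kg per day under the back skin in 2 spots, PBS in the same way, for up to 14 days, female KO mice of 8 to 12 weeks, and littermates as controls. The stage of the hair cycle of each mouse is not given in the sources used here, and the RNA came from unsorted skin tissue, so that the transcripts of all its cell types were sequenced together.

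Hair follicles pass through growth (anagen), regression (catagen) and rest (telogen). In growth, cells of the hair matrix at the base of the bulb divide around the dermal papilla, a knot of mesenchymal cells that sends signals, and move up to form the hair shaft and the inner root sheath that moulds it. Trichohyalin (Tchh) hardens the inner root sheath and the medulla, while Krt71 and Krt25 are the type II and type I keratins of that sheath. Pigment cells of the bulb make melanin during growth and are lost from it in regression. In mouse skin the fat layer and the thickness of the dermis also change with the hair cycle, so the cycle can move many transcripts of bulk skin. In bulk RNA, fewer cells of a type and less RNA per cell cannot be told apart.

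The 3 genes that made the choice took 3.63%, 4.64% and 3.62% of the counts in WT PBS mice 159, 160 and 161, 5.08% in KO PBS mouse 136 and 2.74% in KO BLM mouse 141. In the low-hair set they took 0.413% and 0.264% in KO BLM mice 144 and 143, 0.0619% in WT BLM mouse 146, 0.0125% in KO PBS mouse 139, 0.00400% and 0.00191% in WT BLM mice 145 and 147, and 0.000784% in KO PBS mouse 137. KO BLM 141 was the nearest library above the line (95% Wilson interval 2.738% to 2.749%) and KO BLM 144 the nearest below it (0.411% to 0.415%). The lowest share, in KO PBS 137, rested on 261 of 33270714 counts (0.000695% to 0.000886%). These intervals cover counting error only, and the spread between mice was far wider. The growth-phase set held all 3 WT PBS mice, 1 KO PBS mouse and 1 KO BLM mouse, which is 4 PBS-treated and 1 bleomycin-treated mice, or 3 WT and 2 KO mice. The low-hair set held all 3 WT BLM mice, 2 KO PBS mice and 2 KO BLM mice, which is 2 PBS-treated and 5 bleomycin-treated mice, or 3 WT and 4 KO mice. In the WT groups, set and treatment coincided and cannot be told apart. The KO groups each held libraries of both sets.

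**Figure D1:**
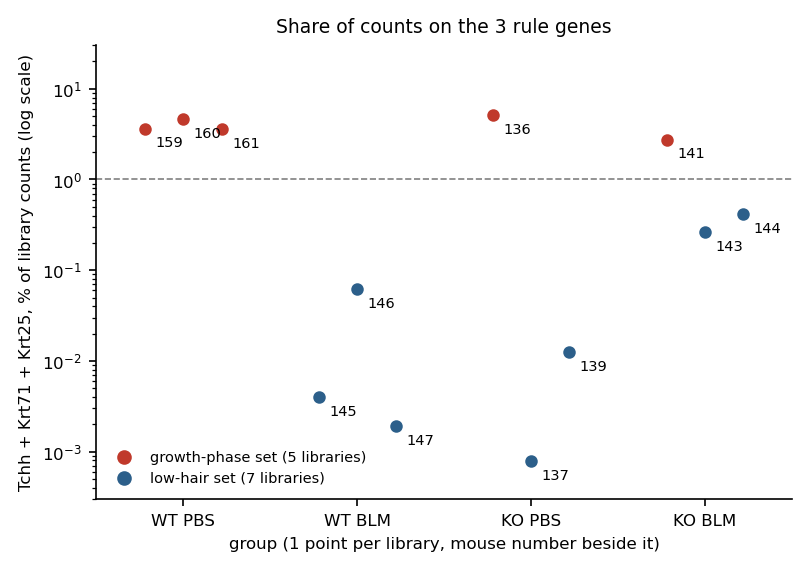
Share of all counts on Tchh, Krt71 and Krt25 (log axis, %) for each of the 12 libraries by group, with the 1% line dashed. The 5 growth-phase libraries lie between 2.74% and 5.08%, and the 7 low-hair libraries spread from 0.000784% to 0.413%.

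Tchh lies on chromosome 3 (93442330 to 93449077), Krt71 on chromosome 15 (101733949 to 101743097) and Krt25 on chromosome 11 (99315516 to 99322951) in RefSeq's GRCm38.p6 annotation. The bases just upstream of these 3 genes are shown with those of Krtap15 and Krtap14 on chromosome 16, keratin-associated proteins of the hair cortex that had the largest differences between the sets under the naming rule. Each line runs 5′ to 3′ on the gene's strand from 250 to 21 bases before the RefSeq start (GRCm38.p6), and capitals mark TATAAA, the core of a TATA box, and CTTTGAA or its complement TTCAAAG, a form of the site that Lef1 and Tcf proteins bind.
Tchh, chr3:93442080-93442309, plus strand: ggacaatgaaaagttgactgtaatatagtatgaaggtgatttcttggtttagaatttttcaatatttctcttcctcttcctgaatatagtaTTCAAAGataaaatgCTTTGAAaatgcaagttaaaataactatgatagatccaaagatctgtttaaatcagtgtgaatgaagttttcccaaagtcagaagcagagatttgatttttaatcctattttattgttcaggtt
Krt71, chr15:101743118-101743347, minus strand: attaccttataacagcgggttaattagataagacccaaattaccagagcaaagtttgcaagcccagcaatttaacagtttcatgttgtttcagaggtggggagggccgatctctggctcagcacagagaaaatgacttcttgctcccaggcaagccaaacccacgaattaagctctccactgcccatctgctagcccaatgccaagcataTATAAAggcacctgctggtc
Krt25, chr11:99322972-99323201, minus strand: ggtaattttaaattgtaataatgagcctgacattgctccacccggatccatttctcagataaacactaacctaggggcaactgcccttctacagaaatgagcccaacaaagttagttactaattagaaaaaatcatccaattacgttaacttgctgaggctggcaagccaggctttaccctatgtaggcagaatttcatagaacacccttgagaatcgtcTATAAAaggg
Krtap15, chr16:88828759-88828988, plus strand: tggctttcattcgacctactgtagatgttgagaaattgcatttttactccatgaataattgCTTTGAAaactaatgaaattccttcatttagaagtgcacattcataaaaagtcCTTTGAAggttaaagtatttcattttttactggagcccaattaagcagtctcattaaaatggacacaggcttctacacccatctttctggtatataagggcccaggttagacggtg
Krtap14, chr16:88826166-88826395, minus strand: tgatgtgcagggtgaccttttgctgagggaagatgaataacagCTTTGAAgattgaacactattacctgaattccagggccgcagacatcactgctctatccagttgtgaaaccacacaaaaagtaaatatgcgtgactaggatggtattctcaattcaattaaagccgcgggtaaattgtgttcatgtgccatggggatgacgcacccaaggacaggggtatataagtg
TATAAA began 40 bases before the start of Krt71 and 30 bases before that of Krt25. CTTTGAA or its complement was found at 2 places each before Tchh and Krtap15 and at 1 place before Krtap14.

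Both motifs were searched on both strands in the 250 bases before the start of every gene with 1 listed start, and no overlap between the motifs was found in the lines above. TATAAA was present before 40 of 50 Krtap genes with a listed start (80%), 8 of 12 genes of the inner root sheath list (66.7%) and 6 of 9 hair shaft keratins (66.7%). The same letters stood before 895 of 10614 genes among those tested (8.43%). Among genes higher in the growth-phase set by the rule given below, they stood before 105 of 617 that were not Krtap genes (17%), and among those lower before 36 of 390 (9.23%). CTTTGAA was found before 5 of the 9 hair shaft keratins (55.6%), 7 of the 50 Krtap genes (14%), 0 of the 12 inner root sheath genes and 374 of the 10614 genes (3.52%). Such matches describe letters in a window and are not evidence of binding.

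Other transcripts of growing hair, which the choice did not use, were read beside the label. Krt27, another inner root sheath keratin, stood at 4390.2, 5409 and 4166 CPM (counts scaled to library size) in WT PBS mice, 7466 in KO PBS 136 and 3647 in KO BLM 141, against a lowest, median and highest value of 0.428, 24.9 and 661 CPM in the 7 low-hair libraries. Krt31, a keratin of the hair cortex, was at 704, 1146, 806, 779.7 and 500.4 CPM in the same order, against 0.0984, 1.25 and 43.8 CPM. Msx2, a homeobox factor of the hair matrix, was at 199, 189.8, 189, 179 and 122 CPM, against 4.59, 7.31 and 34.4 CPM. In each case the 5 growth-phase libraries stood together and clear of the other 7. These are hair genes like those of the rule, so their split lies near the choice and is no separate support. Shh, a further marker of growing hair, overlapped between the sets (5.98 to 15 against 0.235 to 7.35 CPM). The label resting describes the low-hair set less evenly. Krt27 was at 359 and 661 CPM in KO BLM 143 and 144 and at 75.3 CPM in WT BLM 146, but at 0.428 to 24.9 CPM in the other 4, and the same 3 libraries were the highest of the set for Krt31 and for the mean of the inner root sheath list. In KO BLM 143 and 144 the Shh transcript, the hedgehog signal of the growing bulb, was at 7.35 and 6.68 CPM, above the 5.98 CPM of growth-phase KO PBS 136. The low-hair set is therefore named by its rule here and not by a stage.

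Genes without overlap were counted for the hair share and for the study's 2 labelled factors. Of 18311 genes with enough counts, 3946 (21.5%) had no overlap between the 5 growth-phase and the 7 low-hair libraries. Between the 6 bleomycin and the 6 PBS mice 957 genes (5.23%) had no overlap, and 60 (0.328%) had none between the 6 KO and the 6 WT mice. With a difference of at least 2-fold in the mean log2 CPM also required, 1105 genes were higher in the growth-phase set (6.03% of those tested) and 636 were lower (3.47%), against 558 (3.05%) for bleomycin and 36 (0.197%) for genotype. Because measured hair transcripts chose the sets, these counts are a description and carry no test. The 3 rule genes are among the 3946 and the 1105. The labelled groups were not chosen by values, and the sets also differ in treatment (4 of 5 PBS-treated against 2 of 7). The counts thus do not rank the hair share against the labelled factors. KO BLM 141 was the growth-phase library nearest the line and the only one given bleomycin. Without it, 1306 genes were higher and 1991 lower, and the share of differences that were higher fell from 63.5% to 39.6%. Its place near the line and its treatment cannot be told apart there. Hair genes are here the rule genes, the inner root sheath, shaft keratin and Krtap genes, and not the matrix regulator or pigment lists. With hair genes taken out of the library totals, the median over all genes rose to 0.12 on the log2 scale. The share of differences that were higher became 77.3%. Along the first principal component of the 500 most variable genes other than hair genes, which held 71% of their variance, the growth-phase libraries lay at 35.6 to 63.9 and the low-hair libraries at -63.1 to -18.6, with KO BLM 141 and KO BLM 144 facing each other across the gap. Matrix regulators, pigment genes and further genes of hair cells such as Gprc5d were not taken out before the 500 were picked. This gap therefore lies near the choice of the sets and is no separate support.

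**Figure D2:**
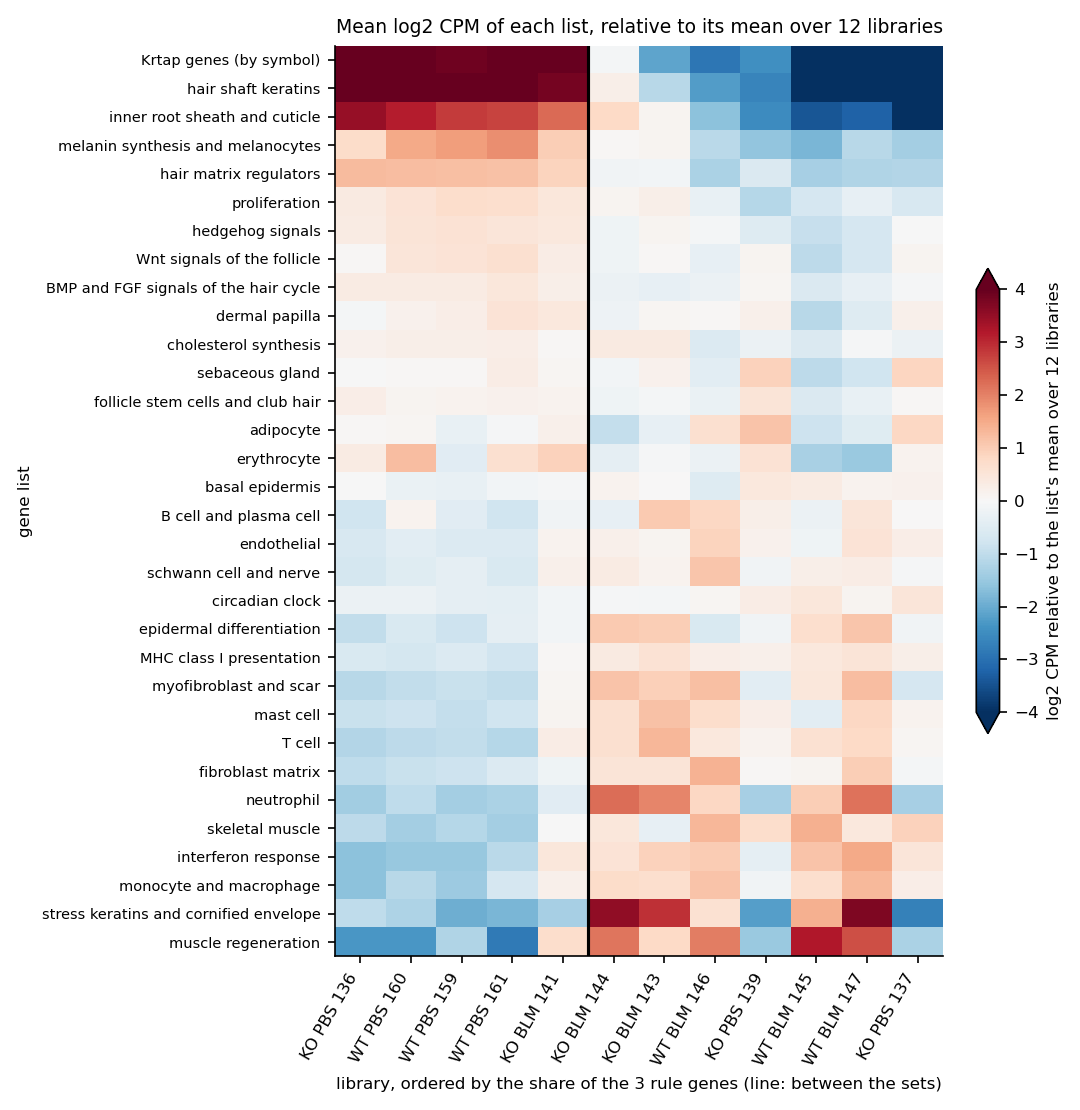
Mean log2 CPM of each gene list (rows) in each library (columns, ordered by the share of the 3 rule genes), relative to the list's mean over the 12 libraries, with colours clipped at 4 either way and a black line between the sets. Hair and pigment lists are high in the 5 libraries on the left, muscle, macrophage, interferon and fibroblast matrix lists are low in the 4 PBS-treated ones but near or above their mean in KO BLM 141, and KO BLM 144 and 143 stand between the extremes for the hair lists.

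Genes of the hair fibre and its sheath formed the largest differences. Of 18 inner root sheath and cuticle genes, 13 were higher in the growth-phase set and 0 lower, with a median difference of 6.22 on the log2 scale against -0.00 over all genes tested. Of 15 measured hair shaft keratins 13 were higher (median 8.09), and of 57 measured Krtap genes, the sulphur- and glycine-rich proteins that cross-link keratin in the fibre, 54 were higher (median 8.26). Of 58 listed Krtap genes 57 passed the filter on low counts, and those near 0 in the low-hair set did so through the growth-phase libraries where they are high, so their count describes these genes and supports nothing. Krt83, a keratin of the hair cortex, was at 1100.5, 2508 and 1414 CPM in WT PBS mice, 1559 in KO PBS 136 and 816 in KO BLM 141, and at 0.391 to 45 CPM (median 2) in the low-hair set. Krtap15 was at 509, 2094, 1071, 1467 and 456 CPM against 0 to 17.1 CPM (median 1.05), a log2 difference of 10.83. Padi3, which turns arginine of trichohyalin into citrulline, was at 669, 791, 615, 1041 and 431 CPM against 0.257 to 74.8 CPM (median 1.79). Tchhl1, a relative of trichohyalin, was at 688 to 1526 CPM against 0.343 to 72.6 CPM, and Crnn, or cornulin, of the same gene family, at 517 to 1267 CPM against 0.0286 to 71.2 CPM. Krt81, Krt34, Gprc5d, Vsig8, Lyg2 and Calhm4, with log2 differences from 7.47 to 9.89, are also among the 12 genes that the naming rule takes as the largest differences. Krtap14 (10.5) and Tchh (7.88), itself a gene that chose the sets, completed the 12, and Krt83 is not one of them. In each of the 12 the lowest growth-phase value was above the highest of the low-hair set. Gprc5d codes for an orphan receptor of keratinizing hair cells. Cst6 and Ctsl, a protease inhibitor and a protease, are on the sheath list for their part in cornification but overlapped between the sets: Cst6 was at 948 to 1513 CPM against 658 to 2361 CPM. Near-identical hair keratins and Krtap genes can share reads, and how such reads were counted is not given in the sources used here.

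Transcription factors of the hair matrix moved with the fibre genes. Of 23 such regulators and adhesion genes, 16 were higher in the growth-phase set and 1 was lower, with a median difference of 1.74. Dlx3, a homeobox factor needed for the hair shaft, was at 639, 625 and 604 CPM in WT PBS mice, 635 in KO PBS 136 and 386 in KO BLM 141, against 29.3 to 148 CPM (median 43.4). Foxn1, the factor lost in nude mice, was at 144, 197, 152, 163 and 90.1 CPM against 11.5 to 31.5 CPM, and Hoxc13, which drives hair keratin genes, at 196, 175, 180.2, 196 and 122 CPM against 5.44 to 30.7 CPM. Vdr, the vitamin D receptor, differed less, at 357 to 424 CPM against 129.9 to 241 CPM. Hr, the hairless corepressor, overlapped between the sets (666 to 1239 and 413 to 1017 CPM). The gene that was lower, singled out here after its values were seen, was Foxi3, a forkhead factor of hair placodes, at 0 to 1.65 CPM against 1.84 to 4.54 CPM.

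Signals between the dermal papilla and the bulb split by member. Of 14 hedgehog genes 5 were higher and 0 lower (median 0.65). Ptch1, the hedgehog receptor and a target of the pathway, was at 113, 157 and 141 CPM in WT PBS, 108 in KO PBS 136 and 129 in KO BLM 141, against 40.5 to 96.1 CPM. Smo, the signal transducer, was at 103 to 131 CPM against 79.8 to 101 CPM, no overlap but less than 2-fold, and Gas1 and Boc, which bind the ligand, overlapped. Shh itself overlapped, at 5.98 to 15 CPM against 0.235 to 7.35 CPM. Of 30 measured Wnt genes 8 were higher and 1 lower (median 0.65). Lef1, the DNA-binding partner of beta-catenin in the matrix, was at 120.0, 123, 114, 93.3 and 74.4 CPM against 2.27 to 24.5 CPM (median 8.02). Sfrp1, a secreted antagonist, was also higher, at 154 to 226 CPM against 27.3 to 102 CPM, while Apcdd1 and Wnt4 overlapped. Of 28 measured BMP and FGF genes 8 were higher and 2 lower (median 0.30). Tgfa, an EGF receptor ligand kept on that list, was at 110.4 to 201 CPM against 27.3 to 54.4 CPM, and the receptors Fgfr1 and Fgfr2 did not pass, with log2 differences of -0.67 and 0.28. Chosen after its values were seen, Fgf5, the factor that ends hair growth, was at 6 to 36 CPM against 0.492 to 2.3 CPM. In the dermal papilla list only 2 of 20 measured genes were higher and 0 lower, and in the list of follicle stem cells and club hair 4 of 25 and 0. Krt15, a keratin of bulge stem cells, overlapped, and its highest values of 2505 and 3969 CPM were those of low-hair KO PBS 137 and 139.

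Most, but not all, pigment genes were higher in the growth-phase set. Of 23 measured melanocyte genes 14 were higher and 0 lower, with a median difference of 2.54. Dct, which makes dihydroxyindole carboxylic acid on the way to melanin, was at 483, 424 and 550.3 CPM in WT PBS, 251 in KO PBS 136 and 266 in KO BLM 141, against 21.7 to 179.5 CPM (median 46). Pmel, the fibril protein on which melanin is laid down, was at 395, 356, 446, 167 and 189.7 CPM against 11.6 to 102 CPM (median 18.9). Both growth-phase KO libraries were below all 3 WT PBS libraries for Dct and Pmel, and KO BLM 143 and 144 were the highest of the low-hair set. Gpnmb, the most abundant member and also on the macrophage list, overlapped (339 to 669 against 78 to 418 CPM). Its level was 339 CPM in KO BLM 141, below the 372 and 418 CPM of KO BLM 143 and 144. Myo5a had no overlap but differed by less than 2-fold (147 to 214 against 87 to 135 CPM). Of 40 proliferation genes 19 were higher and 0 lower (median 1.04). Mki67, a marker of cycling cells, was at 333, 305, 359, 266 and 249 CPM against 62.2 to 163 CPM (median 83.6). Top2a also passed, while Rrm1 (95.7 to 128 against 57 to 104 CPM) and Mcm6 (83.4 to 96.4 against 57.5 to 92.7 CPM) overlapped.

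Genes lower in the growth-phase set included members of the dermal, epidermal, muscle and immune lists, in most of which few members passed. Of 30 fibroblast matrix genes 7 were lower and 0 higher, with a median difference of -1.33. Col1a1, the main collagen chain of the dermis, was at 2078, 1628 and 2204 CPM in WT PBS, 1559 in KO PBS 136 and 2903 in KO BLM 141, against 3563 to 10748 CPM (median 8822), and low-hair KO PBS 137 and 139, which had no bleomycin, were at 5051 and 3563 CPM. Thbs2, a matricellular thrombospondin, was at 80.8 to 153 CPM against 286 to 944 CPM. Krt1, the type II keratin of the suprabasal epidermis, was at 360.3, 389.7, 584, 339.8 and 966 CPM against 1426 to 11476 CPM (median 3888), and its partner Krt10 at 1698 to 3437 CPM against 3675 to 14066 CPM. Of all 27 epidermal differentiation genes only these 2 passed, and Krt5 and Krt14 of the basal layer overlapped. Mmp9, a gelatinase, had the largest difference among the named genes that were lower (-3.18), at 4.16 to 13 CPM against 20.3 to 176 CPM. Serpinb3b, a protease inhibitor of keratinocytes, and Il1f9, or IL-36 gamma, an epidermal cytokine, had differences of -2.83 and -2.27. The other named genes were Hspb3, Rapsn, Lrrc17, Slit1, Slc16a3, Col24a1 and Dnm3os, with differences of -2.61 to -2.17, of which Hspb3 and Rapsn are muscle genes and Col24a1 is a fibrillar collagen. Dnm3os overlaps Dnm3 on the other strand, and whether counting used strand is not given in the sources used here.

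Lrrc15, a gene of the scar list, went the other way, at 732, 1314, 919, 1309.6 and 701 CPM against 20.2 to 382 CPM (median 291). Sprr1a, a cornified envelope precursor on the stress list, was likewise higher in the growth-phase set, at 1525 to 2487 CPM against 176 to 1101 CPM. Among 30 skeletal muscle genes 7 were lower and 0 higher (median -1.74), Acta1 being at 1566 to 1778 CPM in the 4 PBS-treated growth-phase libraries and at 3555 CPM in KO BLM 141, against 3579.6 to 13194 CPM. Atp2a1, Myh1 and Myh4, the other most abundant members, overlapped between the sets. Among 29 monocyte and macrophage genes 4 were lower and 0 higher (median -1.84), and Lyz2, or lysozyme, overlapped only through KO BLM 141, at 678 CPM against 139 to 291 CPM in the other 4 and 608 to 1368 CPM in the low-hair set. The other most abundant members did not follow Lyz2. Lgals3 and Cd9 overlapped widely, with log2 differences of -0.33 and 0.27. Gpnmb, also on the pigment list, overlapped but leaned the other way (1.62). Among 20 MHC class I genes 5 were lower (median -1.03), B2m being at 427 to 477 CPM in the 4 PBS-treated libraries, 1029.8 in KO BLM 141 and 1077 to 1624 CPM in the low-hair set. For muscle, macrophage, MHC class I and interferon lists, KO BLM 141 was the growth-phase library nearest to the low-hair set, and it was the only one given bleomycin. The adipocyte list differed little (1 of 28 higher, 0 lower, median -0.12, with a range of -0.32 to 0.13 over the alternatives), but its low-hair libraries ranged widely: Cfd, or adipsin, was at 1204 and 1293 CPM in KO PBS 137 and 139, at 1393 in WT BLM 146 and at 171 to 387 CPM in the other 4.

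**Figure D3:**
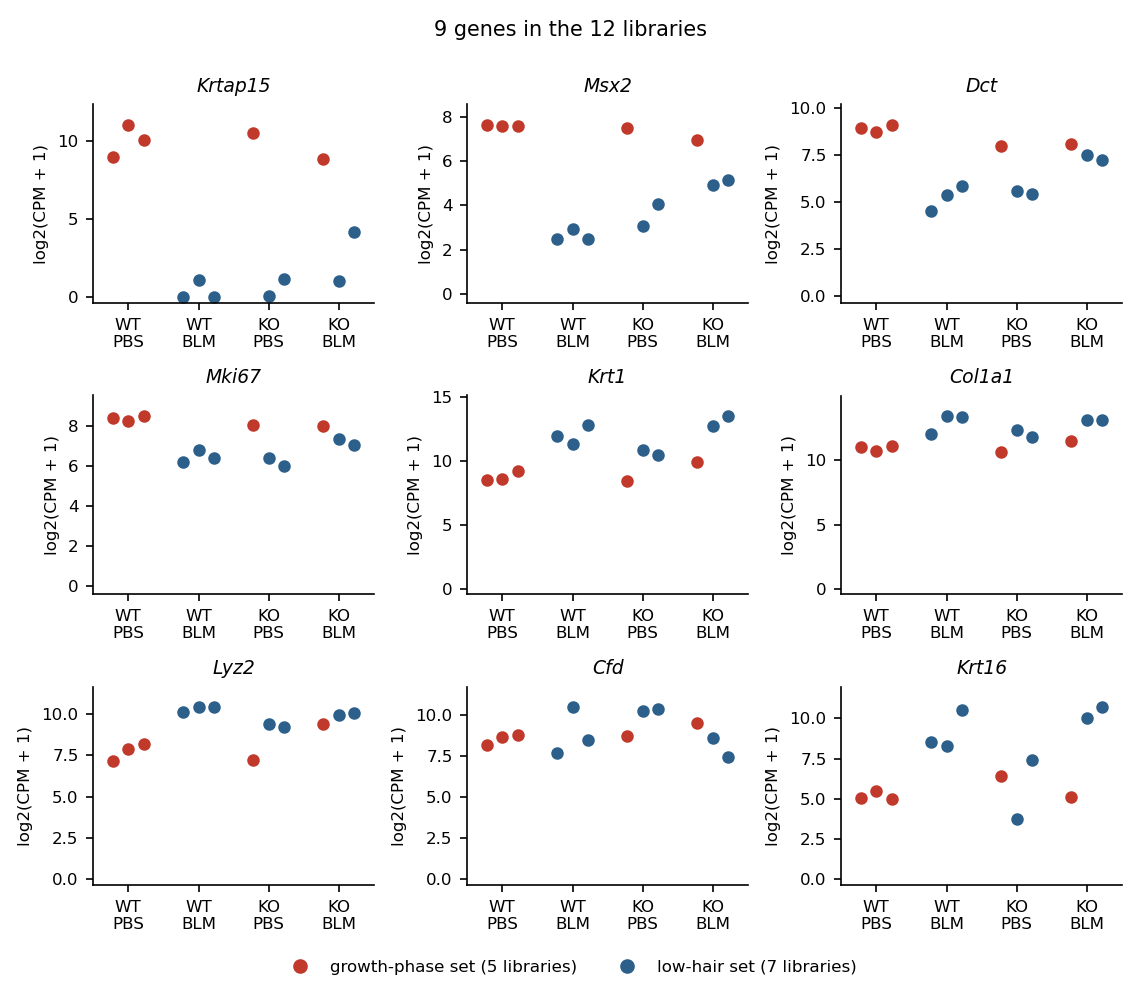
Level of 9 genes, log2(CPM + 1), in each library by group, with growth-phase libraries in red and low-hair libraries in blue. Krtap15, Msx2, Dct and Mki67 are higher and Krt1 and Col1a1 lower in all 5 growth-phase libraries, Lyz2 overlaps through KO BLM 141, and Cfd and Krt16 spread across the low-hair set.

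Within a KO group genotype and treatment were the same, so growth-phase KO PBS 136 was set against low-hair KO PBS 137 and 139, and growth-phase KO BLM 141 against KO BLM 143 and 144. A gene was counted where the 1 library lay outside both others and differed from their mean by at least 2-fold, with no test. In KO PBS 1993 genes were higher (10.9%) and 3300 lower (18%), and in KO BLM 1243 were higher (6.79%) and 885 lower (4.83%). In the same direction in both groups, 689 genes, the 3 rule genes included, were higher (3.76%) and 402 lower (2.2%), and 219 were called in opposite directions. The differences in the 2 groups, which share no library, had a Pearson r of 0.56 across 18311 genes, as a description, since genes are not independent and the hair genes that chose the sets are among them. All 57 measured Krtap genes, 14 of 15 hair shaft keratins and 12 of 18 inner root sheath genes were higher in both. Next came 9 of 23 matrix regulators and 9 of 23 melanocyte genes. The Krtap, shaft keratin and sheath genes are hair genes like those of the rule, so their counts lie near the choice of the sets. Those with few or no counts in the low-hair libraries passed the filter through the growth-phase libraries. Their being higher in both KO groups is therefore a description and no separate support. The hair differences were smaller in KO BLM, where the 2 comparison libraries carried more hair transcripts: the median for the inner root sheath was 8.65 in KO PBS and 2.31 in KO BLM. On the lower side, 10 of 30 fibroblast matrix and 10 of 27 epidermal differentiation genes were lower in both, with differences in KO PBS and KO BLM of -1.94 and -1.85 for Krt10 and -1.44 and -1.60 for Col1a1.

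Several lists moved mainly in 1 KO group or in opposite directions. Proliferation genes were higher in 27 of 40 cases in KO PBS and in 0 of 40 in KO BLM, where Mki67 was at 249 CPM in mouse 141 and at 163 and 132 CPM in mice 143 and 144. Skeletal muscle genes were lower in 29 of 30 cases in KO PBS and 4 in KO BLM, and macrophage genes in 25 of 29 and 4. In KO BLM 1 muscle gene was higher: Myh4, a myosin of fast fibres, at 2770 CPM in mouse 141 against 312 and 61.9 CPM. In KO PBS 1 macrophage gene was higher, Gpnmb, with a log2 difference of 3.01. Adipocyte genes were lower in 16 of 28 cases in KO PBS and higher in 11 of 28 in KO BLM, with Adipoq, or adiponectin, at 77.4 CPM in KO PBS 136 against 162 and 279.6 CPM, and at 101 CPM in KO BLM 141 against 60.2 and 23.5 CPM. Stress keratins and cornified envelope genes were higher in 12 of 24 measured cases in KO PBS and lower in 22 of 24 in KO BLM. Krt16, a keratin of wounded epidermis, was at 33 CPM in KO BLM 141, close to the 31.2 to 44.5 CPM of WT PBS mice, and at 1035 and 1654 CPM in KO BLM 143 and 144. With 1 library against 2, none of these differences between the groups was tested.

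**Figure D4:**
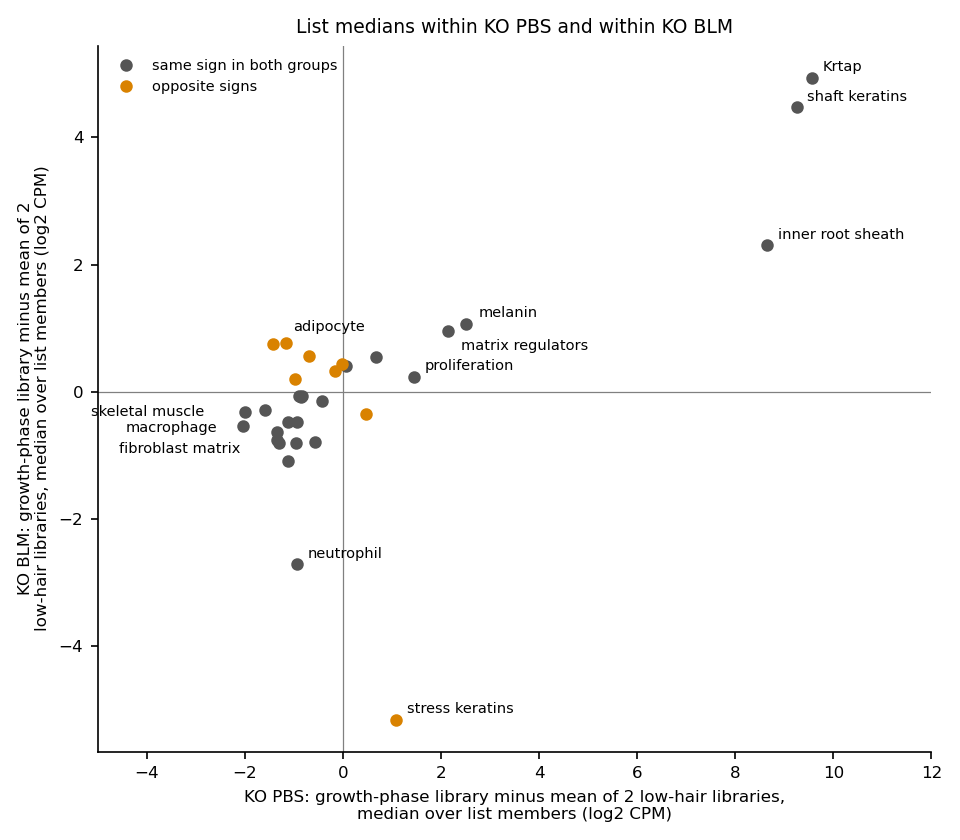
For each gene list, the median over members of the growth-phase library minus the mean of both low-hair libraries (log2 CPM), in KO PBS (x axis) and KO BLM (y axis). Hair lists lie at the upper right in both groups, fibroblast matrix and macrophage lists at the lower left, and stress keratins (1.09 and -5.15) and adipocyte genes (-1.15 and 0.77) have opposite signs.

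In WT mice the sets are the treatment groups, so the WT comparison was read beside the KO PBS mice, in which no bleomycin was given. WT PBS differed from WT BLM, with no overlap and at least 2-fold, in 1814 genes that were higher in WT PBS (9.91%) and 2866 that were lower (15.7%). Between growth-phase KO PBS 136 and low-hair KO PBS 137 and 139, 1305 of these 1814 genes (71.9%) were also higher and 1899 of these 2866 (66.3%) also lower, while 58 and 39 went the opposite way. As shares of the KO PBS genes these are 65.5% and 57.5%, and the comparisons share no library. Over all genes tested, 10.9% were higher and 18% lower in KO PBS, where 1 growth-phase library stood against 2. The 3 rule genes are among the 1814 and the 1305. Over the WT genes the median difference was 1.71 in WT and 1.56 in KO PBS on the higher side, and -1.77 and -1.31 on the lower side. Whatever WT showed, KO PBS had 21 of 30 fibroblast matrix and 25 of 29 macrophage genes lower, with 1 of each list higher. It also had 21 of 27 interferon and 29 of 30 skeletal muscle genes lower and 27 of 40 proliferation genes higher, with 0 the other way. Of 22 fibroblast matrix genes called in WT, 18 were called the same way in KO PBS, and likewise 24 of 24 macrophage, 20 of 26 interferon, 28 of 29 skeletal muscle and 24 of 25 proliferation genes. The share was smaller for sebaceous gland (1 of 9), dermal papilla (2 of 12), endothelial (3 of 9), stress keratin (6 of 17) and Wnt genes (7 of 18). Among others, it was also smaller for neutrophil (4 of 10), cholesterol synthesis (3 of 7), B cell (2 of 4) and MHC class I genes (7 of 14). The same held for BMP and FGF (8 of 16), muscle regeneration (9 of 16), hedgehog (4 of 7) and adipocyte genes (3 of 5). The interferon and skeletal muscle shares were near those of their whole lists in KO PBS. No difference between lists was tested. Myh3, the embryonic myosin of regenerating fibres, was at 667, 179 and 439.8 CPM in WT BLM, 81.2 and 277 CPM in low-hair KO BLM and 68.6 CPM in growth-phase KO BLM 141, but at 0.382 to 7.37 CPM in all 6 PBS mice of either set. S100a9, a neutrophil granule protein, was at 24.5 to 256 CPM in the 5 low-hair bleomycin libraries and at 0.942 to 6.15 CPM in the other 7, KO BLM 141 included.

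Labelled groups within a set were compared 3 times with edgeR's quasi-likelihood test, in 1 model with a mean for each group and set, at a Benjamini-Hochberg adjusted p of 0.05. Dividing groups by a measured share can lower the spread inside them, so the p-values may be too small. The biological coefficient of variation in this model was 21.8%, and that of undivided groups is not given here. In the low-hair set, 2 KO BLM mice differed from 2 KO PBS mice in 4170 genes, 2554 higher in KO BLM (13.9%) and 1616 lower (8.83%). Hair was not held constant there, as the shares were 0.413% and 0.264% against 0.0125% and 0.000784%: 12 of 18 inner root sheath genes, 6 of 15 shaft keratins and 14 of 23 melanocyte genes were higher, with 2 melanocyte genes lower. Higher in KO BLM were also 34 of 40 proliferation genes, 20 of 24 stress keratin and cornified envelope genes, 12 of 18 muscle regeneration genes and 9 of 12 neutrophil genes. Krt6b, a keratin of wounded epidermis, was at 708 and 1277 CPM in KO BLM against 0.971 and 1.07 CPM (log2 difference 9.92, SE 1.20, edgeR adjusted p = 0.0045), and Tdh, threonine dehydrogenase, at 37.3 and 72 against 0.228 and 0.0298 CPM (8.66, SE 0.86, edgeR adjusted p = 0.0036). Uox, urate oxidase, had no count in KO PBS 137 and 139, where 3 counts would be 0.0857 and 0.0893 CPM, and 6.82 and 5.05 CPM in KO BLM 143 and 144 (edgeR adjusted p = 0.021), while growth-phase KO PBS 136 was at 10.9 CPM. Lower in KO BLM were 13 of 28 adipocyte, 10 of 20 sebaceous gland and 9 of 19 circadian clock genes, and 5 of 30 skeletal muscle genes, with 1 gene of each of these lists higher. Myoc, or myocilin, was at 1.39 and 1.24 against 56 and 129 CPM (-6.13, SE 0.73, edgeR adjusted p = 0.0044), and Myh4, the myosin of fast fibres, at 312 and 61.9 against 7649 and 6424 CPM (-5.23, SE 1.53, edgeR adjusted p = 0.040). Lyg2 and Lce3d were further named genes that were higher, and Hamp2, Il31ra and Nnat further ones that were lower. In the myofibroblast and scar list 10 of 23 genes were higher and 0 lower. For macrophage genes these were 11 of 29 and 2, and for fibroblast matrix genes 7 of 30 and 0. Among collagens, Col1a1 was at 8829.7 and 8822 against 5051 and 3563 CPM and did not pass (1.04, SE 0.46, edgeR adjusted p = 0.125). Across 19 alternatives the call held in 19 for Myoc, in 17 for Krt6b and Tdh, in 13 for Uox (edgeR adjusted p up to 0.835) and in 11 for Myh4 (edgeR adjusted p up to 0.359). Uox did not pass without any 1 of KO PBS 137, KO PBS 139, KO BLM 143 or KO BLM 144 (edgeR adjusted p = 0.058 to 0.093), nor did Myh4 without any 1 of these or of WT PBS 159 and 160 (0.058 to 0.205). The count fell to 207 without KO BLM 144, 421 without KO PBS 139, 850 without KO PBS 137, 1593 without KO BLM 143 and 2560 without WT PBS 160, and to 56 when all 3 mice of each group were compared with no term for the sets.

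**Figure D5:**
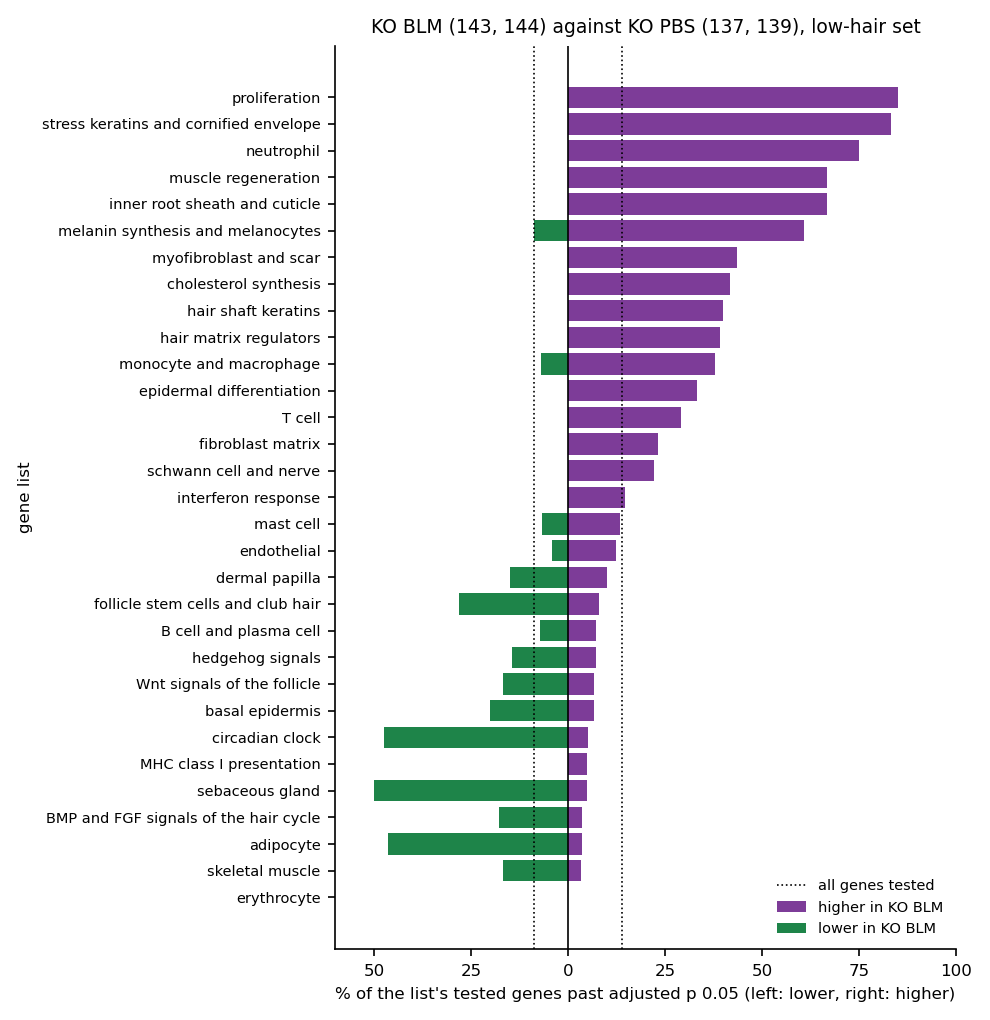
Percentage of each list's tested genes past an adjusted p of 0.05 in KO BLM 143 and 144 against KO PBS 137 and 139, higher to the right and lower to the left, with the share over all genes tested dotted (13.9% and 8.83%). Proliferation and stress keratin lists reach furthest to the right, and sebaceous gland, circadian clock and adipocyte lists furthest to the left.

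Also in the low-hair set, 2 KO BLM mice differed from 3 WT BLM mice in 847 genes, 489 higher in KO BLM (2.67%) and 358 lower (1.96%). The hair share was 0.413% and 0.264% against 0.00191% to 0.0619%, and 13 of 23 melanocyte genes and 11 of 23 matrix regulators were higher, with 3 of 18 inner root sheath genes and 2 of 15 shaft keratins. Cholesterol synthesis genes were higher in 12 of 24 cases and sebaceous gland genes in 7 of 20. Of fibroblast matrix genes 0 of 30 were higher and 2 lower, and Col1a1 was at 8829.7 and 8822 against 4068, 10748 and 10218 CPM (0.08, SE 0.41, edgeR adjusted p = 0.915). Genes named by the rule as higher were Krtap26-1, Foxe1, Krt28, Kcnk16 and Krtap10-10, of which Krt28 and both Krtap genes are hair genes. Those lower were Il31ra, Krt24, Angptl7, Wfdc3 and Kcnq5, led by Il31ra, the receptor of the itch cytokine IL-31, at 1.36 and 0.883 against 9.08, 15.1 and 6.59 CPM (-3.18, SE 0.57, edgeR adjusted p = 0.027). Il31ra held its call in 10 of 19 alternatives (edgeR adjusted p up to 0.331), and the other named genes held theirs in 8 to 14. Without KO BLM 143 or 144, Il31ra had an edgeR adjusted p of 0.134 or 0.167, and without WT BLM 145 or any 1 WT PBS mouse it had 0.051 to 0.058. The count depended on single libraries: it was 13 without KO BLM 144, 20 without KO BLM 143, 104, 132 and 182 without WT PBS 160, 159 and 161, 183, 507 and 2845 without WT BLM 145, 146 and 147, and 333 and 332 without KO PBS 137 and 139.

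In the growth-phase set, where 1 KO PBS mouse stood against 3 WT PBS mice and was assumed to vary like the others, 8 genes passed, 6 higher (0.0328%) and 2 lower (0.0109%) in KO PBS. At an unadjusted p under 0.05 there were 729, and DESeq2 called 43. The named gene was Wdfy1, an endosomal adaptor, at 40.1 CPM in KO PBS 136 against 16.8, 15.4 and 13.1 CPM (1.41, SE 0.14, edgeR adjusted p = 0.013). Wdfy1 also stood at 36.7 to 41.2 CPM in all 6 KO libraries and 13.1 to 19.2 CPM in all 6 WT libraries, so its groups by genotype did not overlap in either set. Its call rests on the spread of other groups and held in 14 of 18 alternatives, with an edgeR adjusted p of 0.116 from the libraries compared alone, 0.054 and 0.055 without KO BLM 143 and 144, and 0.077 without WT PBS 160. Leaving out 1 library moved the count to 5 (KO PBS 137 or 139, WT BLM 147, WT PBS 159 or 160) or 4 (KO BLM 143 or 144).

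Counts of Thy1, the targeted gene, are given per gene, and which part of it is deleted in the KO mice is not given in the sources used here, so they do not check the labels. In the growth-phase set Thy1 was at 104, 115 and 149 CPM in WT PBS, 45.6 in KO PBS 136 and 84.6 in KO BLM 141. In the low-hair set it was at 96.8 and 77.4 CPM in KO PBS, 128 and 96.3 in KO BLM, and 231, 349 and 416 in WT BLM. Transcript was thus counted in every KO library, and within the low-hair set KO BLM was lower than WT BLM (-1.57, SE 0.27, edgeR adjusted p = 0.027). That call held in 12 of 19 alternatives, with a log2 difference of -1.78 to -1.37, and was lost without KO BLM 143 or 144 (edgeR adjusted p = 0.120 and 0.165) and without WT PBS 159 or 160 (0.054 and 0.059). In the growth-phase set the difference of KO PBS from WT PBS was -1.43 (SE 0.36, edgeR adjusted p = 0.84).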

How the data were processed

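RNA-Seq of skin from 12 mice was analysed, 3 in each of 4 groups. The authors prepared stranded mRNA libraries and deposited read counts per gene symbol, not normalized, for 55453 genes. The labels name the genome build GRCm38.p6 and MultiQC 1.7, and the aligner, counting tool, annotation and use of strand are not given in the sources used here. Library totals ran from 26473700 to 38890450 counts. Intervals of shares are 95% Wilson intervals. Groups were taken from the sample titles. Replicates carry different mouse numbers.

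Counts were scaled by TMM in edgeR 4.0.16 (R 4.3.3). Of 34689 genes with a count, filterByExpr (at least 10 counts, 15 in total) kept 18311. Log2 CPM used a prior count of 2, on which the differences of genes near 0 depend, and CPM were printed without it. The sets were compared without a test, by overlap and a 2-fold minimum. Within sets, edgeR's quasi-likelihood test was used on 6 group and set means, with DESeq2 1.42.0 as an alternative. On simulated data with 200 genes changed 4-fold, 175, 176 and 158 were recovered in the 3 contrasts, with 11, 8 and 4 others called. These data used the spread fitted after the libraries were divided by the share, so they do not measure the effect of that choice. No gene was left out of a library total. Replicate numbers are not shared between groups.

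The members and the gene lists were chosen with earlier results of these data known. Named genes were the 3 of the rule, up to 12 each way with no overlap between the sets, the same direction in both KO groups, a mean of at least 1 log2 CPM and at most 2 per symbol stem, the 4 most abundant members of each list, markers of growing hair and other cell types, up to 5 each way per test, and Thy1. Any other gene is said to be chosen after its values were seen. Upstream sequences were taken from RefSeq (GRCm38.p6). Figures were drawn with matplotlib 3.10.9 in Python 3.11.15. Some genes that the naming rule or the lists would give are not reported here.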

Additional observations from a re-analysis of the deposited data

Results flagged for a closer look

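For 5 lists every low-hair library of a KO group lay on one side of that group's growth-phase library in KO PBS and on the other side in KO BLM, and the difference between the groups was not tested. As the growth-phase library minus the mean of the low-hair libraries, in mean log2 CPM over the list, the stress keratins and cornified envelope list stood at 1.44 in KO PBS and -4.59 in KO BLM. The adipocyte list stood at -0.93 and 0.86. The dermal papilla list stood at -0.27 and 0.47, the Wnt list at -0.066 and 0.346, and the cholesterol synthesis list at 0.42 and -0.31. The 2 low-hair libraries were PBS-treated in one group and bleomycin-treated in the other, and their hair shares differed, so neither can be told apart from the difference.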

How the results depend on the processing

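The number of genes higher in the growth-phase set was within 1.5 times of 1105 under every alternative except a 4-fold minimum (533), and the number lower moved from 636 to 51 at 4-fold, 391 with library totals without hair genes, and 1110 or 1168 without both KO BLM libraries or the 3 libraries nearest below the line, alternatives chosen after seeing the data. Leaving out 1 library gave 1070 to 1306 higher and 606 to 1991 lower, the last without KO BLM 141. Within both KO groups the 4-fold counts were 275 and 17, and leaving out 1 library gave 671 to 729 and 406 to 501. For genes shared by WT and KO PBS they were 529 and 311, with 1293 to 1409 and 1857 to 2118 on leaving out 1 library. No value exists without KO PBS 136, or for both KO groups without KO BLM 141. KO BLM against KO PBS gave 745 genes with group and set as additive terms, 56 without the sets, and 207 to 5751 on leaving out 1 library. KO BLM against WT BLM gave 1637 without a filter, 46 with additive terms, 17 without the sets, 4 from the libraries compared alone, 2880 in DESeq2, and 13 to 2845 on leaving out 1 library. KO PBS against WT PBS gave 33 without a filter, 43 in DESeq2, and 4 to 10 on leaving out 1 library. The cause was not tested. Of 4304 values of named genes and lists under the alternatives, 47 changed sign, 0 of them for a gene called or tested past the threshold. They include the medians of the adipocyte, erythrocyte, sebaceous gland and stem cell lists, the adipocyte one ranging from -0.32 to 0.13. Of the tests of named genes, 136 values were no longer past the threshold. The median of the proliferation list moved to 1.46 without the 3 libraries nearest below the line. Share lines of 0.5% and 2% gave the same sets. No paired analysis was possible because the groups share no replicate numbers.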
